A study of Mus musculus with 42 samples.

Results

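Collagen genes encode the chains of the most abundant structural proteins of the extracellular matrix. They were taken as every gene whose symbol is Col, a number, the letter a and a number, and that was annotated as protein coding, which gave 44 of the 35275 genes listed. The samples were cerebella of male C57/BL6NTac mice (strain given as C57BL/6 for each sample), flash frozen after dissection and profiled by RNA-seq, in 30 libraries, 5 for each of 6 groups. From 3 to 6 months of age the mice were fed ad libitum (AL), were fasted for 16 h each day (IF16), or were fasted for 24 h on alternate days (EOD), and were collected after these 3 months. Other mice went through the same regimens and were then all fed ad libitum for 2 months, to 8 months of age (refed AL, refed IF16 and refed EOD, marked with the suffix R in the plots). The labels name no allele or transgene, and all mice drank freely and had been raised on a standard rodent diet. The comparisons ask whether either way of fasting altered collagen transcripts and whether any difference was still there after refeeding.

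A collagen molecule is a rod of chains wound around each other in a helix that is possible because glycine recurs at regular steps along each chain. The chains are hydroxylated and glycosylated in the endoplasmic reticulum, folded with dedicated chaperones, trimmed outside the cell and crosslinked. Fibrillar collagens build rope-like fibrils, type IV collagen builds the sheet of basement membranes, type VI forms beaded filaments, and the FACIT collagens (fibril-associated, with interrupted helices) decorate fibrils. In brain these genes are active mainly outside the neural tissue proper: in fibroblasts of the meninges, in blood vessels and in the stroma and epithelium of the choroid plexus, the ventricular tissue that makes cerebrospinal fluid. A dissected cerebellum can carry more or less of those tissues.

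Total counts per library ranged from 26799825 to 36167435. Markers of granule and Purkinje cells were present in every library, with summed levels of 3442 to 3999 CPM (counts scaled by library size) and 4154 to 6558 CPM, so the label cerebellum held. Tissue outside the neural part differed between libraries. Ttr, the main transcript of choroid plexus epithelium, ran from 13.7 to 4100 CPM at the end of the regimens, where AL replicate 1 and IF16 replicate 5 had at most 17.5 CPM and the other 13 libraries at least 304. After refeeding it ran from 7.83 to 2150 CPM, with 9 libraries at 15.9 CPM or less and 6 at 157 or more. The summed level of 11 choroid plexus markers went from 181.2 to 5143 CPM in AL, 170.8 to 4154 in IF16, 1185 to 3887 in EOD, 165.4 to 2763 in refed AL, 154.5 to 1033 in refed IF16 and 166.1 to 3054 in refed EOD, and no marker was at 0 in any library. For the meninges, 11 fibroblast markers other than collagens summed to 145.3 to 180.2 CPM in AL, 129.2 to 189.7 in IF16, 159.7 to 192.9 in EOD, 141.4 to 163.1 in refed AL, 109.5 to 186.1 in refed IF16 and 109.5 to 181.2 in refed EOD, again with none at 0. In these whole-tissue libraries a smaller number of cells of a type and less RNA per cell cannot be told apart.

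All 44 genes had reads in at least some libraries, and their levels ran from 0.0168 to 24.1 FPKM on average. On the deposited scale of fragments per kilobase and library size (FPKM), which corrects for gene length, 24 had a mean of at least 1 over the 30 libraries and 6 were under 0.1. The highest was Col18a1, the source of the anti-angiogenic fragment endostatin, with a mean of 24.1 FPKM and a narrow range of 20.1 to 27.9. Col9a3, a chain of the FACIT collagen IX, followed with 19.7 FPKM and a range of 13.9 to 31.8, and its partner chain Col9a2 had 7.84. Of the fibrillar chains, Col1a2 had 7.51 FPKM, Col27a1 6.83, Col1a1 4.43 and Col11a2 4.01. The vascular basement membrane chains Col4a1 and Col4a2 had 4.12 and 3.67 FPKM, and Col6a1 and Col6a2 of the beaded filaments had 4.35 and 2.12. The 9 FACIT genes held 28.2% of the summed FPKM of all 44, the 11 fibrillar genes 27.6%, the 2 multiplexins Col18a1 and Col15a1 21.2%, the 6 type IV chains 8.01%, the 6 type VI chains 5.88% and the 4 transmembrane collagens 4.69%. At the low end, Col10a1, the collagen of hypertrophic cartilage, had at most 7 counts in a library and passed no filter on low counts. Col24a1 passed it only at the end of the regimens and in the joint table, so 43 collagens were tested there and 42 after refeeding.

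**Figure D1:**
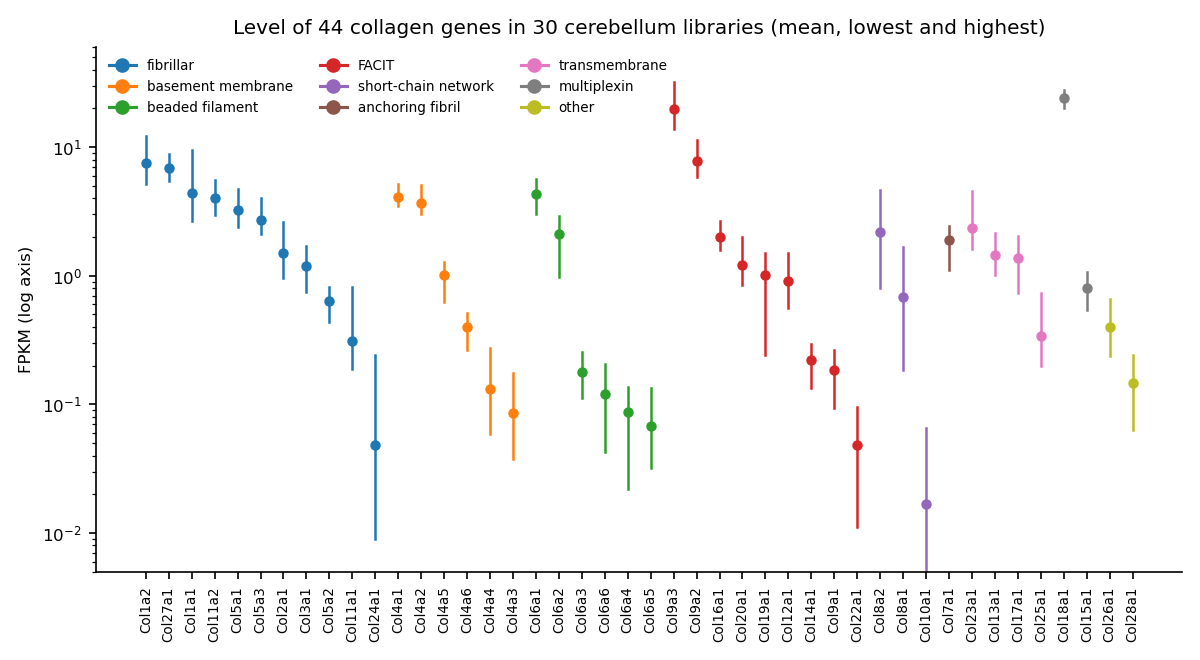
Mean deposited FPKM (points, log axis) of each of the 44 collagen genes over 30 cerebellum libraries, with lines from the lowest to the highest library, grouped and coloured by collagen class. Col18a1 and Col9a3 stand at the top, at 24.1 and 19.7 FPKM, while Col10a1 at the bottom has libraries at 0, where its line runs off the axis.

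At the end of the regimens most collagens stood lower in the fasted groups than in AL, by small amounts and with no single gene past the test. In IF16, 31 of 43 tested collagens had a log2 fold change below 0, with a median of -0.17, while the median over all 16577 genes was -0.01 and 48.7% of genes stood higher. EdgeR called none (quasi-likelihood test, Benjamini-Hochberg adjusted p, threshold 0.05), against 0.0483% of all genes. DESeq2 called 2 collagens, among 94 genes in all. An unadjusted p under 0.05 was reached by 10 collagens (23.3%), each lower in IF16, where the share over all genes was 9.92%, with 5.57% lower. By class, 10 of 11 fibrillar chains, 4 of 6 type IV chains, 4 of 6 type VI chains and 6 of 9 FACIT chains were below 0, with medians of -0.26, -0.15, -0.23 and -0.09, whereas 3 of the 4 transmembrane collagens were above 0. Markers of other tissues were lower in IF16 as well: 11 of 11 for the choroid plexus (median -0.61), 5 of 5 for ependyma (-0.30), 8 of 11 for meningeal fibroblasts (-0.13), 7 of 10 for mural cells (-0.09) and 6 of 10 for endothelium (-0.03), with none called. Their part in the lower collagen values was not tested.

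EOD gave a like count against the same AL libraries, which both comparisons share. Here too 31 of 43 collagens were below 0, with a median of -0.11 (all genes -0.02). EdgeR called none, where it called 0.0664% of all genes, and DESeq2 called 2, among 133 genes in all. At an unadjusted p under 0.05 there were 11 collagens (25.6%), each lower in EOD, against 14.4% of all genes, made up of 7.4% lower in EOD and the rest higher. Of the 11 fibrillar chains, 10 were again below 0, with a median of -0.23, but the 6 type IV chains divided evenly, with a median of 0.04. In EOD 5 of 5 ependymal markers (median -0.31) and 8 of 10 mural markers (-0.12) were lower, but only 3 of 11 choroid plexus markers (0.25), 5 of 11 meningeal markers (0.0001) and 5 of 10 endothelial markers (0.002). None was called, and their part was not tested.

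**Figure D2:**
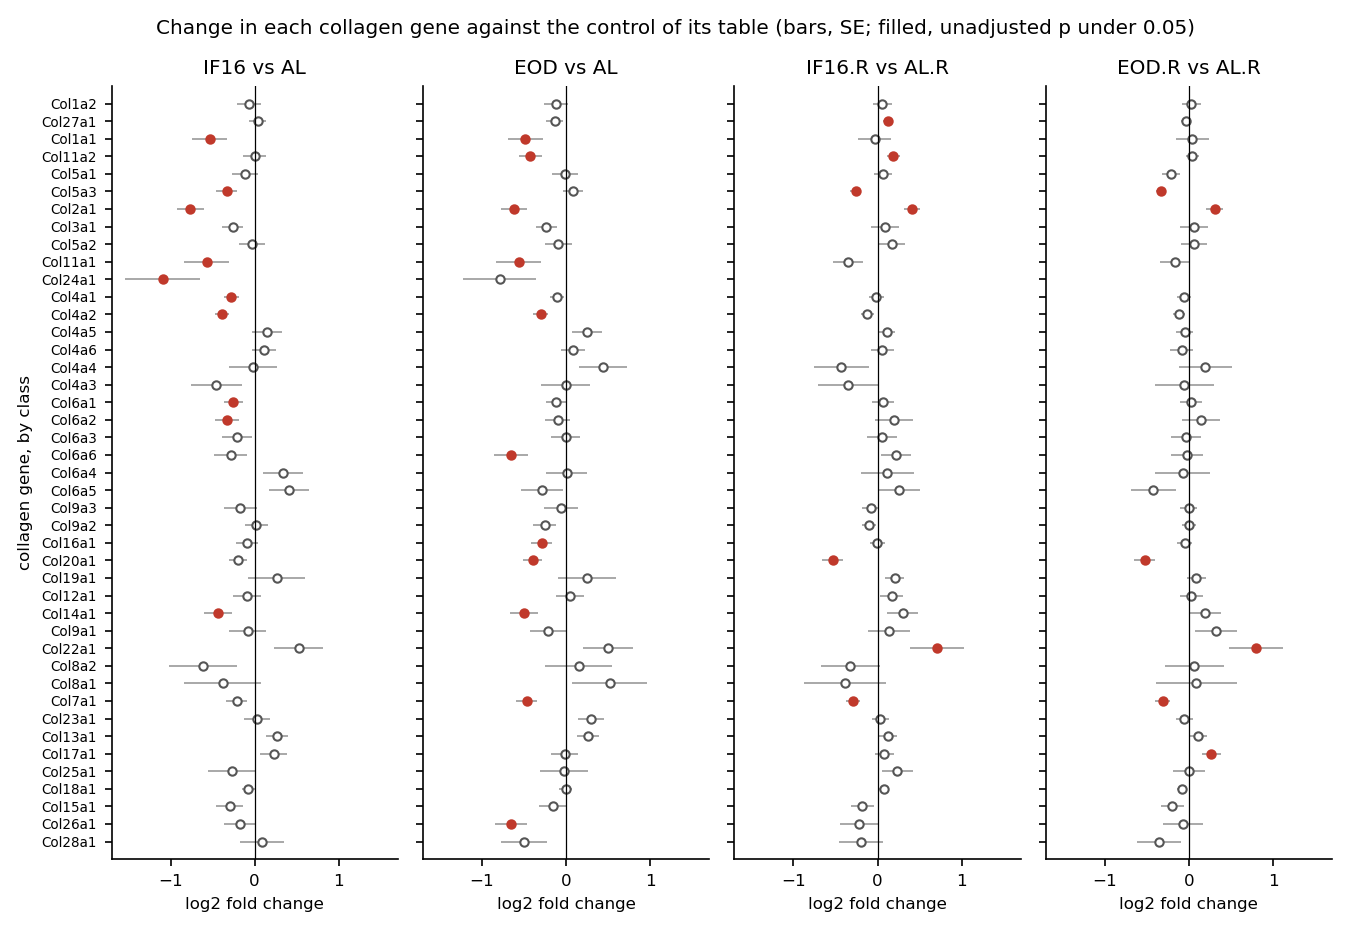
Log2 fold change (x axis, points, bars are SE) of each tested collagen gene (y axis, ordered by class) in the 4 comparisons of a fasted group with the control of its table. Filled points have an unadjusted p under 0.05: 10, 11, 7 and 6 genes from left to right, and at the end of the regimens each of them lies left of 0.

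Col2a1 (ENSMUSG00000022483, chromosome 15, 97975602-98004695, minus strand in mm10 coordinates), the chain of type II collagen and the main fibril protein of cartilage, did not overlap between AL and IF16. Its 5 libraries had 7.51, 10.1, 8.31, 8.37 and 13.5 CPM in AL and 5.98, 6.6, 4.8, 5.73 and 5.05 in IF16. Every AL library was above every IF16 library, and AL replicate 5 was the highest. The log2 fold change was -0.76 (SE 0.157, edgeR adjusted p = 0.109). DESeq2 and the fit with each library's length gradient, its slope of log2 level on log2 gene length, as a covariate put it past the threshold, at adjusted p of 0.00204 and 0.0476. EOD libraries had 5.12, 5.64, 6.03, 7.87 and 6.34 CPM, which reached into the AL range with a single library, and differed from AL by -0.62 (SE 0.156, edgeR adjusted p = 0.203). DESeq2 called this difference too, at an adjusted p of 0.0277. Groups that did not overlap were seen for 2 of 43 collagens in IF16 against AL, Col2a1 and Col4a2, both lower in IF16, and for 1.55% of all genes, with 0.694% lower.

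Col4a1 and Col4a2 encode the chains of the main type IV collagen of vascular basement membranes. The genes lie head to head on chromosome 8, on opposite strands, and in the deposited annotation they overlap by 22 bases (ENSMUSG00000031502, chromosome 8, 11198423-11312826, minus strand, and ENSMUSG00000031503, chromosome 8, 11312805-11449287, plus strand). Their promoter windows, from 250 bases before to 50 after each RefSeq start (GRCm38.p6), are shown because the pair shares this stretch and was counted without a stated rule for strand. Col4a1 is at chr8:11312777-11313076 on the minus strand and Col4a2 at chr8:11312555-11312854 on the plus strand, each written 5′ to 3′, and capitals mark the 78 bases that both windows hold.
Col4a1: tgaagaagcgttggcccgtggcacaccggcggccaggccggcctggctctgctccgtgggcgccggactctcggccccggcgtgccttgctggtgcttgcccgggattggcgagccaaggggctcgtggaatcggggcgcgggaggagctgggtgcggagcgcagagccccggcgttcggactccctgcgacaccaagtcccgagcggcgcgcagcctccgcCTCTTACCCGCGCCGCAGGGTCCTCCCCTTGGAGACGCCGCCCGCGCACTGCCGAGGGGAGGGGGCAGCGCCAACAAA
Col4a2: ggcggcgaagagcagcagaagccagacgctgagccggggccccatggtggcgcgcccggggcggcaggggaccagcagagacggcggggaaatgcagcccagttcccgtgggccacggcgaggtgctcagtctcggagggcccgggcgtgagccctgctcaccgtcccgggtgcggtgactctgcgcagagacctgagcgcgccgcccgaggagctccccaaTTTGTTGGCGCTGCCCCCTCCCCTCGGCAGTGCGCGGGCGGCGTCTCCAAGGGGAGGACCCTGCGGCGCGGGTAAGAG
Col4a2 had 32.3, 29.3, 23.8, 32.2 and 29.9 CPM in AL and 22.5, 23.7, 20, 23.2 and 23.3 in IF16. The lowest AL library only just exceeded the highest IF16 library. The log2 fold change was -0.39 (SE 0.0881, edgeR adjusted p = 0.169), and DESeq2 gave an adjusted p of 0.0128. For Col4a1 the values were 32.9, 30.3, 27.2, 31.2 and 31 CPM in AL and 22.9, 25.1, 23.3, 26.5 and 28.3 in IF16. They overlapped through AL replicate 3 and IF16 replicate 5, and the log2 fold change was -0.28 (SE 0.0856, edgeR adjusted p = 0.338). In EOD, Col4a1 had 27.8, 24.6, 29.5, 33.2 and 26.7 CPM and Col4a2 21.5, 22.4, 25, 27 and 23.6. Both ranges reached into those of AL, with log2 fold changes of -0.11 (SE 0.0854, edgeR adjusted p = 0.495) and -0.30 (SE 0.0881, edgeR adjusted p = 0.247). The vascular index, the mean log2 CPM of 20 endothelial and mural markers, averaged 4.78 with an SD of 0.01 over the 5 AL libraries, 4.69 with 0.06 in IF16 and 4.71 with 0.1 in EOD. With that index in the model, Col4a1 and Col4a2 in IF16 against AL moved to -0.15 and -0.30, and the part of vessel content in the difference was not tested.

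Type I collagen, the most abundant fibril of connective tissue, varied widely within the groups. Col1a1 had 24.3, 55.8, 29, 26.4 and 37.5 CPM in AL, 22, 24.2, 15.8, 25.1 and 32.3 in IF16 and 24.8, 21.1, 25, 28.7 and 24.1 in EOD. AL replicates 2 and 5 were the highest, and all 3 ranges overlapped. Log2 fold changes were -0.53 (SE 0.206, edgeR adjusted p = 0.429) in IF16 and -0.48 (SE 0.206, edgeR adjusted p = 0.329) in EOD. Its partner Col1a2 had 37.3, 63.8, 37.8, 35.7 and 44.2 CPM in AL, 40.9, 35.9, 34.9, 44.7 and 53 in IF16 and 44.6, 37.7, 41.6, 39.1 and 38.9 in EOD. AL replicate 2 was again the highest, and the log2 fold changes were -0.07 and -0.12. Col3a1, the fibril chain of elastic tissues and vessel walls, had 6.97, 9.36, 8.53, 6.18 and 7.61 CPM in AL, 7.06, 6.79, 5.67, 7.02 and 5.74 in IF16 and 7.99, 6.21, 6.76, 6.7 and 5.28 in EOD. Its groups overlapped, and the log2 fold changes were -0.26 and -0.23.

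The extremes of the 2 comparisons were mostly genes of few reads. The lowest log2 fold change in both was that of Col24a1, a minor fibrillar chain, with -1.09 (SE 0.441, edgeR adjusted p = 0.446) in IF16 and -0.79 (SE 0.432, edgeR adjusted p = 0.373) in EOD. AL replicate 1 had 1.71 CPM while the other 4 AL libraries had 0.288 to 0.515. IF16 libraries had 0.21, 0.243, 0.468, 0.307 and 0.3 CPM and EOD libraries 0.405, 0.501, 0.367, 0.269 and 0.363. In IF16 the highest were Col22a1, a FACIT chain of tissue junctions, with 0.52 (SE 0.294, edgeR adjusted p = 0.561), and Col6a5, with 0.41 (SE 0.236, edgeR adjusted p = 0.562). In EOD the second lowest was Col6a6, at -0.66 (SE 0.206, edgeR adjusted p = 0.269), and the highest were Col8a1 and Col22a1, at 0.52 (SE 0.448, edgeR adjusted p = 0.529) and 0.50 (SE 0.297, edgeR adjusted p = 0.396). Values of AL and EOD did not overlap for 4 of 43 collagens, Col6a6, Col7a1, Col14a1 and Col20a1, each lower in EOD, and for 2.9% of all genes, with 1.53% lower. Col7a1, the anchoring fibril of skin, had 17.3, 21.5, 16.7, 20.2 and 21.7 CPM in AL and 15.3, 13.6, 14.8, 10.6 and 16.2 in EOD. The highest EOD library was below the lowest in AL, with a log2 fold change of -0.47 (SE 0.122, edgeR adjusted p = 0.208), and DESeq2 called it. EOD and IF16 differed in no collagen by edgeR or DESeq2, as in no gene by edgeR (0% called), and 5 collagens (11.6%) had an unadjusted p under 0.05, where 3.62% of all genes did. The highest log2 fold changes of EOD over IF16 were those of Col8a1 and Col8a2, at 0.90 and 0.76, and the lowest those of Col6a5 and Col28a1, at -0.69 and -0.59. Unlike AL and IF16, EOD held no library of low Ttr, and the part of choroid plexus content in the values of Col8a1 and Col8a2 between these groups was not tested.

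**Figure D3:**
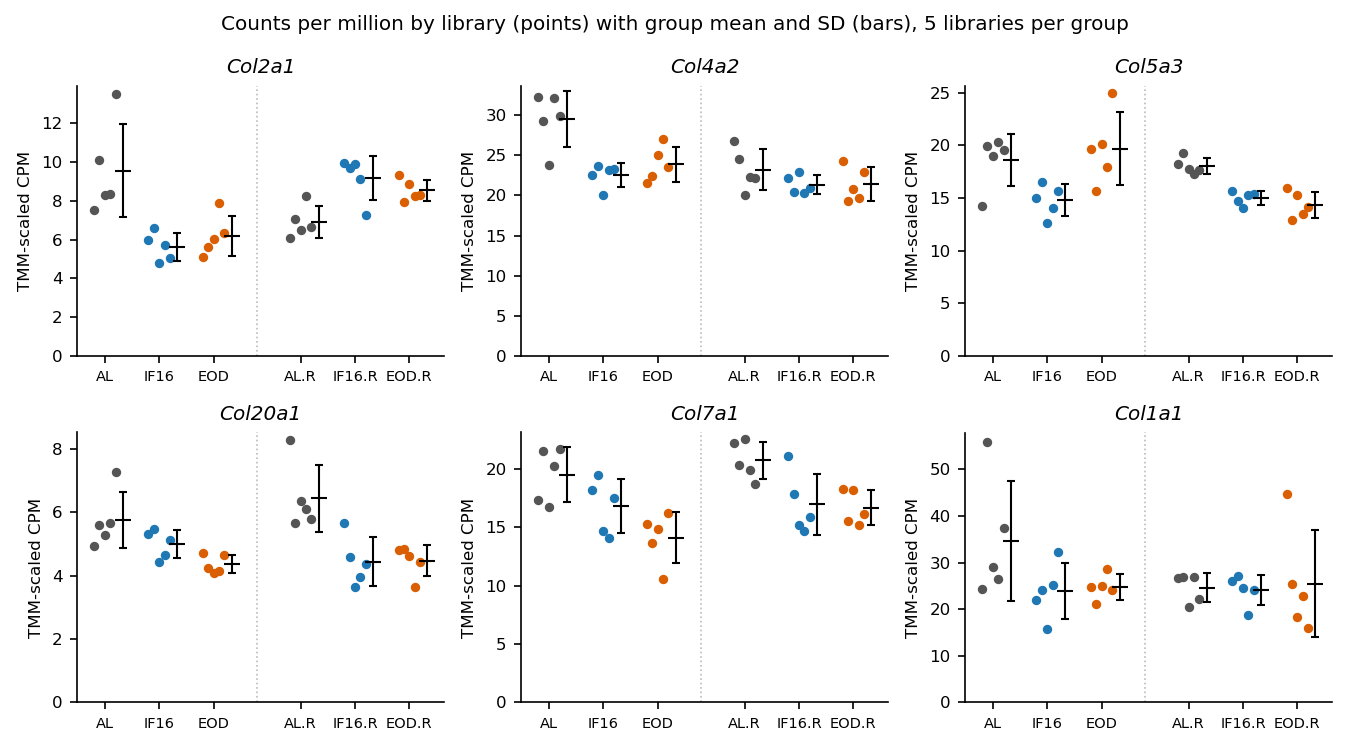
TMM-scaled counts (CPM) in each library (points) for Col2a1, Col4a2, Col5a3, Col20a1, Col7a1 and Col1a1, with the mean and SD of each group of 5 libraries (bars), groups at the end of the regimens left of the dotted line and after refeeding right of it. The order of AL and IF16 for Col2a1 at the end of the regimens (9.56 and 5.63 CPM on average) is the opposite of that of refed AL and refed IF16 (6.92 and 9.20 CPM), and the scaling was done separately for the 2 sides.

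In refed IF16 against refed AL, 17 of 42 were below 0, with a median of 0.06 (all genes -0.0024), and in refed EOD against refed AL 23 of 42 were, with a median of -0.01. Whether these shifts differ from those at the end of the regimens was not tested. EdgeR called none in either comparison, where it called 0.17% and 0.0426% of all genes. DESeq2 called 3 and 1, among 105 and 87 of all 16444 genes. At an unadjusted p under 0.05 there were 7 collagens (16.7%, all genes 9.58%) and 6 (14.3%, all genes 8.5%). The 2 comparisons share the refed AL libraries. All 6 type VI chains and all 4 transmembrane chains were above 0 in refed IF16, with medians of 0.15 and 0.10, and none of the 10 passed the test.

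Col5a3, Col20a1 and Col2a1 were among the collagens with the smallest p-values. Col5a3, a chain of collagen V, which sits inside type I fibrils and limits their width, had 18.2, 19.3, 17.7, 17.3 and 17.6 CPM in refed AL, 15.7, 14.7, 14, 15.3 and 15.4 in refed IF16 and 15.9, 12.9, 15.3, 13.5 and 14.1 in refed EOD. Every refed AL library was above every library of the other 2 groups. Log2 fold changes were -0.26 (SE 0.0608, edgeR adjusted p = 0.112) and -0.33 (SE 0.0611, edgeR adjusted p = 0.0554), DESeq2 called both (adjusted p 0.0202 and 0.000588), and without refed EOD replicate 1 edgeR called the second, at an adjusted p of 0.042. Col20a1, a little studied FACIT chain, had 8.28, 5.67, 6.36, 6.09 and 5.79 CPM in refed AL, 5.67, 4.58, 3.63, 3.95 and 4.36 in refed IF16 and 4.82, 4.83, 4.62, 3.65 and 4.42 in refed EOD. These groups also lay apart from refed AL, narrowly so in refed IF16, where the highest library equalled the lowest of refed AL after rounding, with log2 fold changes of -0.53 (SE 0.126, edgeR adjusted p = 0.121) and -0.53 (SE 0.127, edgeR adjusted p = 0.171). DESeq2 called the first (adjusted p 0.0155). Col20a1 overlaps a noncoding gene on its own strand. Col7a1 had 22.2, 20.3, 22.5, 19.9 and 18.7 CPM in refed AL, 21.1, 17.8, 15.2, 14.7 and 15.9 in refed IF16 and 18.3, 15.5, 18.2, 15.2 and 16.1 in refed EOD. It was lower in the refed EOD libraries without overlap, and refed IF16 replicate 1 lay within the refed AL range. The log2 fold changes were -0.29 (SE 0.0887, edgeR adjusted p = 0.293) and -0.31 (SE 0.089, edgeR adjusted p = 0.283). Without refed IF16 replicate 1, Col20a1 and Col7a1 were called in refed IF16 against refed AL, at adjusted p of 0.0296 and 0.035. With the replicate number as a block edgeR called them there too (adjusted p 0.0163 and 0.0496), among 95 of all genes. In refed EOD against refed AL the block gave calls of Col5a3 and Col20a1 (adjusted p 0.0266 each), among 45 of all genes. Groups without overlap numbered 2 of 42 collagens for refed IF16 against refed AL (2.18% of all genes) and 4 for refed EOD against refed AL (1.87%), the fourth being Col17a1, a hemidesmosome collagen, which was higher in refed EOD, at 0.26 (SE 0.112, edgeR adjusted p = 0.532).

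Other collagens at the ends of the range after refeeding had wider errors. Col22a1 had the highest log2 fold change in both comparisons, with 0.71 (SE 0.321, edgeR adjusted p = 0.495) and 0.80 (SE 0.319, edgeR adjusted p = 0.487), on group means of 0.231 CPM in refed AL, 0.385 in refed IF16 and 0.409 in refed EOD. Col4a4 was the second lowest in refed IF16, at -0.43 (SE 0.325, edgeR adjusted p = 0.692), and Col6a5 in refed EOD, at -0.42 (SE 0.266, edgeR adjusted p = 0.701), where Col9a1 was the second highest, at 0.32 (SE 0.247, edgeR adjusted p = 0.775). Between refed EOD and refed IF16, edgeR and DESeq2 called no collagen (edgeR called 0.0182% of all genes), 28 of 42 were lower in refed EOD, and 4 (9.52%, all genes 9.75%) had an unadjusted p under 0.05. The lowest were Col6a5 and Col5a1, at -0.68 and -0.28, and the highest Col4a4 and Col8a1, at 0.63 and 0.47.

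Col2a1 was the collagen whose difference between the fasted and the fed group changed between the end of the daily fast and the end of refeeding. After refeeding it had 6.09, 7.09, 6.49, 8.26 and 6.66 CPM in refed AL, 9.96, 9.71, 9.93, 9.12 and 7.27 in refed IF16 and 9.33, 7.96, 8.89, 8.24 and 8.33 in refed EOD. Refed AL now held the lower values, with overlap through refed AL replicate 4 and refed IF16 replicate 5. Where IF16 had stood below AL (log2 fold change -0.76), refed IF16 stood above refed AL, at 0.41 (SE 0.0947, edgeR adjusted p = 0.104), which DESeq2 called (adjusted p 0.009). The test of the difference between these 2 differences, in a fit of all 30 libraries, gave 1.17 (SE 0.186, edgeR adjusted p = 0.0034), and Col2a1 was the only collagen of 43 called by edgeR, where 0.0474% of all genes were. The call held in each of 20 fits that left out a library, with values of 1.02 to 1.25, and in each of the 10 other settings, with values of 1.06 to 1.18 and adjusted p of at most 0.00792, among them fits with Ttr, the meningeal index, the vascular index or the length gradient as covariate. For EOD the same test gave 0.92 (SE 0.186, edgeR adjusted p = 0.0902), no collagen was called (0.0119% of all genes were), and 5 had an unadjusted p under 0.05 (10.3% of all genes). DESeq2 called Col2a1, among 14 genes in all. It was also called without AL replicate 1 (adjusted p 0.0212) and without EOD replicate 4 (adjusted p 0.0466). The AL libraries enter both tests, and Col2a1 itself was lower in refed AL than in AL. At the other end, the lowest values were those of Col4a4 and Col20a1 for the daily fast (-0.41 and -0.33) and of Col8a1 and Col5a3 for the alternate-day fast (-0.43 and -0.41). The highest besides Col2a1 were Col24a1 (1.27) and Col14a1 (0.69).

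The refed AL group was 2 months older than AL and belongs to another table, so age and table cannot be told apart. Of 43 collagens 30 were lower in refed AL, and edgeR called 5 (11.6%), below the share over all genes of 23.9%. Of these, 4 fell and 1 rose in refed AL. Col4a2 had 29.5 ± 3.36 CPM in AL and 23.2 ± 2.62 in refed AL (SD, n = 5), a log2 fold change of -0.35 (SE 0.0839, edgeR adjusted p = 0.00821). Col2a1 had 9.57 ± 2.36 CPM in AL and 6.91 ± 0.817 in refed AL (SD, n = 5), at -0.47 (SE 0.13, edgeR adjusted p = 0.0146). Col9a3 had 74.2 ± 20.7 CPM in AL and 50.5 ± 6 in refed AL (SD, n = 5), at -0.55 (SE 0.168, edgeR adjusted p = 0.0219). Col24a1 had 0.657 ± 0.597 CPM in AL and 0.237 ± 0.0433 in refed AL (SD, n = 5), at -1.46 (SE 0.392, edgeR adjusted p = 0.013), and its difference without AL replicate 1 was -0.71 with an adjusted p of 0.0666. Col19a1, a FACIT chain that interneurons make at synapses, was the gene that rose, with 3.51 ± 1.9 CPM in AL and 6.5 ± 1.14 in refed AL (SD, n = 5), at 0.88 (SE 0.264, edgeR adjusted p = 0.0203). Its libraries had 5.29, 5.56, 3.25, 1.36 and 2.02 CPM in AL, 2.01, 3.96, 6.11, 4.81 and 4.12 in IF16 and 5.12, 5.51, 3.85, 3.62 and 2.79 in EOD. After refeeding they had 6.12, 7.3, 7.92, 4.99 and 6.21 CPM in refed AL, 8.08, 6.76, 7.79, 7.29 and 7.53 in refed IF16 and 7.8, 6.89, 5.84, 7.95 and 6.09 in refed EOD. The low AL values were those of replicates 4 and 5, and IF16 replicate 1 was low as well. These are libraries with a low length gradient. Only Col24a1 was called with that gradient as a covariate or without the 4 libraries at its extremes. With Ttr as a covariate Col9a3 and Col19a1 were not called (adjusted p 0.202 and 0.0695). In the same comparison 11 of 11 choroid plexus markers were lower (median -1.37, none called), as were 5 of 5 ependymal markers (-0.72, 4 called) and 10 of 11 meningeal markers (-0.10, none called), while 7 of 10 mural markers (0.09, 2 called higher and 1 lower) and 7 of 10 endothelial markers (0.13, 1 called in each direction) were higher. The part of ependyma in the collagen values was not tested. Without AL replicate 5, 2 collagens were called (1250 of all 17034 genes), and without AL replicate 4, 3 (830 of 17008). Without AL replicate 1 or without refed AL replicate 1 it was 8 (6173 of 17005 and 3196 of 17016). The call of Col2a1 was lost without AL replicate 5 (adjusted p 0.084), and that of Col9a3 without AL replicate 4 or 5 (adjusted p 0.105 and 0.054). Col19a1 was not called without AL replicate 4, AL replicate 5 or refed AL replicate 3 (adjusted p 0.0852, 0.0782 and 0.0533). At the ends of the range, Col8a1 had -1.05 (SE 0.506, edgeR adjusted p = 0.121), which passed the threshold without AL replicate 1 or refed AL replicate 1 (adjusted p 0.0414 and 0.0202), and Col6a5 had 0.48 (SE 0.251, edgeR adjusted p = 0.148).

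Col8a1 and Col8a2, the chains of the hexagonal networks of type VIII collagen known from Descemet's membrane of the cornea and from vessel walls, followed the choroid plexus content of the libraries. In a model with the group, log2 CPM of Col8a1 rose by 0.35 (SE 0.0414, edgeR adjusted p = 0.000119) for each doubling of Ttr at the end of the regimens and by 0.24 (SE 0.0338, edgeR adjusted p = 0.000441) after refeeding. For Col8a2 the slopes were 0.30 (SE 0.0314, edgeR adjusted p = 3.45e-05) and 0.16 (SE 0.0297, edgeR adjusted p = 0.00968). Col4a4 and Col9a3 had called slopes as well. Col4a4, a type IV chain of specialised basement membranes, had 0.17 (SE 0.0372, edgeR adjusted p = 0.0557) at the end of the regimens, which was not called, and 0.16 (SE 0.0235, edgeR adjusted p = 0.000938) after refeeding. Col9a3 had 0.13 (SE 0.0186, edgeR adjusted p = 0.000856) and 0.048 (SE 0.00881, edgeR adjusted p = 0.00828). In all, 3 of 43 collagens (6.98%) were called at the end of the regimens, where 0.645% of all genes were, and 4 of 42 (9.52%) after refeeding, where 0.541% were. Each called slope was upward, as were those of 0.633% and 0.541% of all genes. Whether slopes differ between the tables was not tested.

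At the end of the regimens Col8a1 (ENSMUSG00000068196, chromosome 16, 57624258-57754737, minus strand) had 1.21, 5.81, 7.85, 5.36 and 2.75 CPM in AL, 3.72, 2.43, 2.95, 7.67 and 0.961 in IF16 and 8.43, 7.28, 5.54, 4.1 and 7.68 in EOD. AL replicate 1 and IF16 replicate 5, the libraries with Ttr of at most 17.5 CPM, were the lowest. Col8a2 (ENSMUSG00000056174, chromosome 4, 126286793-126314330, plus strand) had 4.02, 16.5, 19.6, 16.2 and 9.98 CPM in AL, 10.1, 6.91, 5.09, 17.8 and 3.51 in IF16 and 18.8, 14, 13.4, 9.66 and 17.9 in EOD, with the same libraries lowest. After refeeding the 4 libraries with Ttr of at least 602 CPM, refed AL replicate 1, refed IF16 replicate 1 and refed EOD replicates 2 and 3, stood apart. Col8a1 had 6, 1.61, 1.4, 0.981 and 1.2 CPM in refed AL, 3.22, 1.4, 1.72, 1.05 and 1.12 in refed IF16 and 1.46, 3.6, 4.3, 1.56 and 0.946 in refed EOD. Those 4 libraries were at 3.22 or more and the other 11 at 1.72 or less, including refed AL replicate 3 and refed IF16 replicate 5, whose Ttr was 199 and 157 CPM. Col8a2 had 15.5, 6.12, 5.35, 4.46 and 4.2 CPM in refed AL, 8.35, 5.79, 5.79, 4.96 and 3.54 in refed IF16 and 6.28, 9.29, 12.9, 5.24 and 3.53 in refed EOD, again 8.35 or more in the 4 and 6.28 or less in the rest.

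Col9a3 (ENSMUSG00000027570, chromosome 2, 180597790-180622189, plus strand) had 42, 80.6, 74.3, 99.9 and 73.5 CPM in AL, 81.2, 71.3, 46.5, 83 and 47.4 in IF16 and 82.4, 64.9, 67.1, 62.7 and 78.1 in EOD. The lowest library was AL replicate 1, but IF16 replicate 3, with 304 CPM of Ttr, was as low as IF16 replicate 5. After refeeding the values were 61, 48.8, 49.1, 46.7 and 47.5 CPM in refed AL, 54.6, 49.5, 43, 47.1 and 44.8 in refed IF16 and 45.5, 51.2, 66.7, 43.6 and 45.6 in refed EOD, with the 4 libraries of high Ttr at 51.2 or more and the rest at 49.5 or less. Col9a3 is overlapped by Tcfl5 on the opposite strand, and with no stated strand rule reads of both genes cannot be told apart. Col4a4 (ENSMUSG00000067158, chromosome 1, 82448423-82586849, minus strand) had 0.809, 1.39, 1.91, 1.52 and 1.28 CPM in AL, 1.26, 1.1, 1.35, 2.36 and 0.781 in IF16 and 2.73, 1.97, 1.87, 1.17 and 1.7 in EOD. After refeeding it had 2, 0.879, 0.945, 1.16 and 0.78 CPM in refed AL, 1.37, 0.659, 0.795, 0.608 and 0.826 in refed IF16 and 0.814, 1.67, 2.25, 0.781 and 1.07 in refed EOD. The 4 libraries of high Ttr had 1.37 or more and the rest 1.16 or less. The neighbouring Col4a3, which starts 71 bases away on the other strand, had slopes of 0.11 and 0.12 (SE 0.0394, edgeR adjusted p = 0.402).

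**Figure D4:**
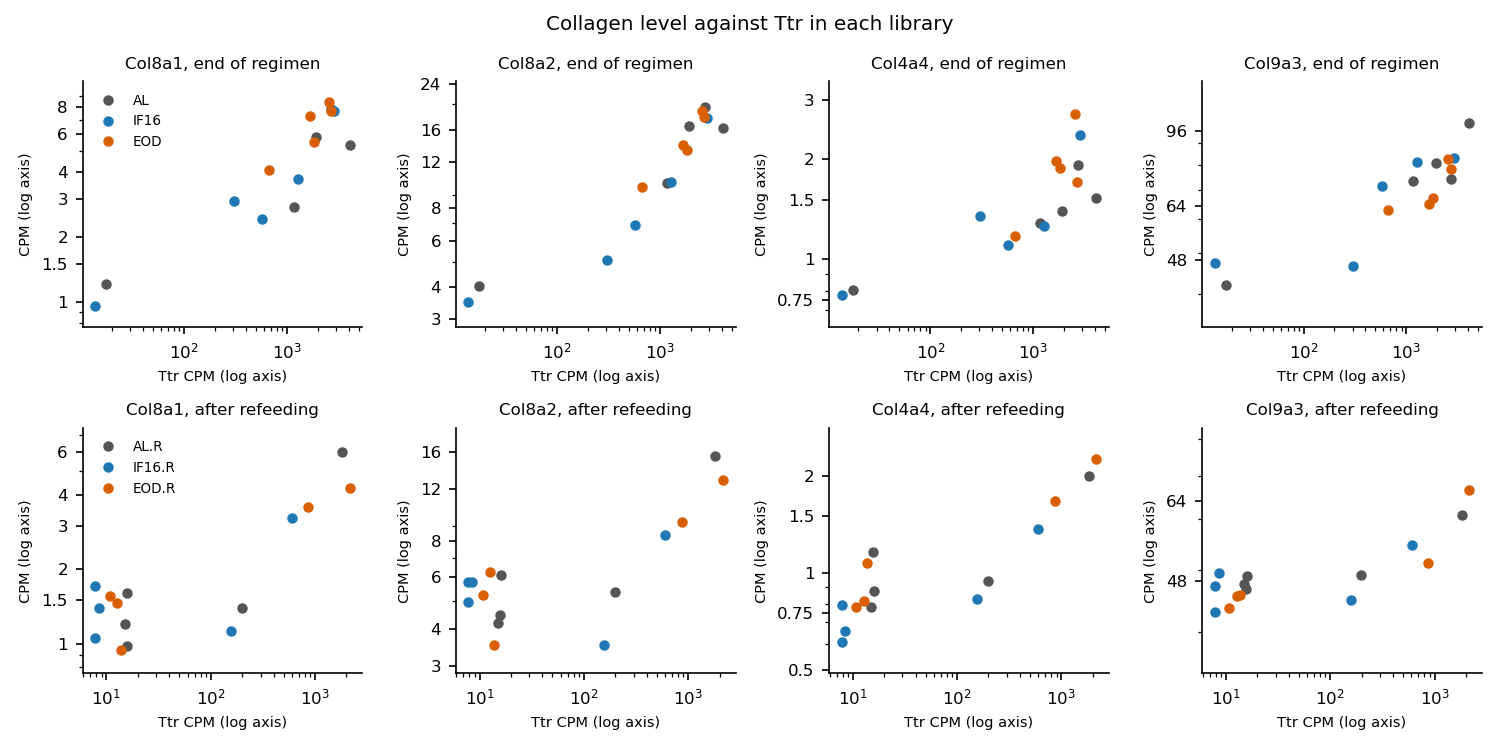
CPM of Col8a1, Col8a2, Col4a4 and Col9a3 (y axes, log scale) against CPM of Ttr (x axes, log scale) in each library, end of the regimens in the upper row and after refeeding in the lower, coloured by group. In the lower row the 4 libraries with Ttr of at least 602 CPM lie above the other 11 for each of the 4 genes.

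Ttr fell into clusters, and some of these slopes rested on few libraries. Without the 2 libraries farthest from the median of Ttr, Col8a1 and Col8a2 were still called at the end of the regimens, while none was called after refeeding, where the slopes of Col8a1, Col4a4, Col8a2 and Col9a3 were then 0.18, 0.13, 0.0871 and 0.0267. Col9a3 at the end of the regimens was not called without AL replicate 1 (adjusted p 0.0661), and after refeeding Col8a2 and Col9a3 were not called without refed AL replicate 1 (adjusted p 0.251 and 0.1) or without refed EOD replicate 3 (0.0756 and 0.0796), and Col8a2 was not called with the length gradient in the same fit (0.0719). With the replicate number as a block Col9a3 was not called after refeeding (edgeR adjusted p 0.11). Conversely, Col4a4 was called at the end of the regimens without IF16 replicate 1 (adjusted p 0.0493) and Col24a1 without IF16 replicate 5 (0.0323). Col4a4 was also called there with DESeq2 (adjusted p 0.0122). EdgeR called it with the length gradient in the same fit (adjusted p 0.0301) and with the mean of 11 choroid plexus markers in place of Ttr (0.0128). The 3 lowest slopes were uncalled with all libraries, and were those of Col24a1, Col25a1 and Col11a1 at the end of the regimens (-0.19, -0.11 and -0.10) and of Col22a1, Col6a4 and Col25a1 after refeeding (-0.0586, -0.0482 and -0.0235). AL replicate 1 was high in all 3 of the former. With Ttr as a covariate, no collagen was called in IF16 against AL, EOD against AL or refed IF16 against refed AL, and Col20a1 was called in refed EOD against refed AL (adjusted p 0.0468).

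The promoters of the type VIII pair are printed because its chains moved together with Ttr in both tables. The windows come from RefSeq (GRCm38.p6), 250 bases before to 50 after the start, 5′ to 3′: Col8a1 at chr16:57754688-57754987 on the minus strand and Col8a2 at chr4:126286544-126286843 on the plus strand. Capitals mark matches, on either strand, to the GC box GGGCGG.
Col8a1: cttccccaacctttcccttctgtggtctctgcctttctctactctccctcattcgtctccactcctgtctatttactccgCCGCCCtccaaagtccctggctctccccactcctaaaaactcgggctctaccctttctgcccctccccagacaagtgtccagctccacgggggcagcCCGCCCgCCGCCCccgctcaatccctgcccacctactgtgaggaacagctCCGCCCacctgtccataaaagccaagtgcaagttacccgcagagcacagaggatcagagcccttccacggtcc
Col8a2: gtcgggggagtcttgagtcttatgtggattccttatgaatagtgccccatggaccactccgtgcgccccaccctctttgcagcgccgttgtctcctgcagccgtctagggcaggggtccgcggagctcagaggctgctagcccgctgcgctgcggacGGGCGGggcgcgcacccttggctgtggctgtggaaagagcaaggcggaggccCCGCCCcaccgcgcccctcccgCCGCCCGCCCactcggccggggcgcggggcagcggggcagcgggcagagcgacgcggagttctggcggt
Each window holds 4 matches, and in Col8a2 2 of them overlap each other. Windows were at hand for 35 of the 44 collagens, 38 in all. Of these, 60.5% held a GC box and 35.7% of the 32851 windows of all genes did. CCAAT was found in 34.2% and 37.4%, TATAAA in 13.2% and 13.6%, and TAATCC, the core that OTX factors such as the choroid plexus regulator OTX2 prefer, in 0 of 38 and 7.06%. Both strands were searched, and no match of a motif overlapped one of another in the printed windows. The type IV windows above hold 1 GC box and 1 CCAAT for Col4a1, and 3 and 1 for Col4a2.

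The collagens called for the meningeal fibroblast markers after refeeding were not those called for Ttr. Col8a1 and Col8a2 had large slopes on these markers too, but uncalled. After refeeding, slopes on the meningeal index, the mean log2 CPM of the 11 markers, were above 0 for 38 of 42 collagens, with a median of 0.44 where all genes had 0.0049. EdgeR called 6 (14.3%, all genes 1.45%), each upward (all genes 0.821%). Col6a2 had the steepest slope, with 1.78 (SE 0.168, edgeR adjusted p = 6.42e-06), and Col6a1, its partner in the beaded filaments of type VI collagen, had 0.90 (SE 0.133, edgeR adjusted p = 0.00111). Col3a1 had 1.07 (SE 0.184, edgeR adjusted p = 0.00409), Col23a1, a transmembrane collagen, 0.67 (SE 0.109, edgeR adjusted p = 0.00239), Col25a1, a neuronal transmembrane collagen whose shed part is found in amyloid plaques, 1.10 (SE 0.247, edgeR adjusted p = 0.0318), and Col18a1 0.33 (SE 0.0645, edgeR adjusted p = 0.0121). Col1a2 was just outside, with 0.62 (SE 0.155, edgeR adjusted p = 0.0508). The index was lowest in refed IF16 replicate 5 (2.93) and refed EOD replicate 5 (2.93), and at least 3.313 in the other libraries. The 3.313 was that of refed AL replicate 5, so replicate 5 was lowest in each refed group. With the replicate number as a block, edgeR still called Col6a2 but none of the others, among 16 of all 16444 genes. The adjusted p was then 0.0946 for Col6a1, 0.432 for Col23a1, 0.738 for Col18a1, 0.999 for Col3a1 and 0.999 for Col25a1.

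Col6a2 (ENSMUSG00000020241, chromosome 10, 76595762-76623630, minus strand) had 9.85, 8.94, 7.79, 9.75 and 9.45 CPM in refed AL, 11.5, 12.2, 13.1, 10.2 and 5.22 in refed IF16 and 14.2, 11.2, 8.54, 11.8 and 4.86 in refed EOD. Refed IF16 replicate 5 and refed EOD replicate 5 were the lowest of the 15. Col6a1 had 16.3, 18.4, 18.1, 16.3 and 17.4 CPM in refed AL, 22.4, 18.8, 20.2, 16.5 and 12.7 in refed IF16 and 21.3, 17.9, 17.4, 18.9 and 12.4 in refed EOD, with the same libraries lowest. Col3a1 had 6.98, 7.39, 5.31, 4.79 and 5.19 CPM in refed AL, 7.31, 6.62, 7.06, 6.25 and 4.26 in refed IF16 and 7.87, 6.79, 5.46, 6.51 and 4.35 in refed EOD, and these libraries were again at the bottom. Col18a1 had 153, 148, 156, 155 and 152 CPM in refed AL, 171, 163, 173, 158 and 140 in refed IF16 and 157, 148, 145, 143 and 128 in refed EOD. Its lowest library was refed EOD replicate 5 and the next refed IF16 replicate 5. Col23a1 had 11.8, 12.4, 11.9, 12.7 and 11.8 CPM in refed AL, 12.6, 13.8, 13.6, 12.3 and 9.55 in refed IF16 and 12.9, 11.4, 11, 13.8 and 9.21 in refed EOD. It too was lowest in refed EOD replicate 5 and refed IF16 replicate 5. Col25a1 had 1.82, 2.42, 2.35, 1.78 and 1.71 CPM in refed AL, 2.39, 2.41, 3.18, 2.36 and 1.52 in refed IF16 and 2.21, 2.12, 1.83, 2.54 and 1.39 in refed EOD, where the highest was refed IF16 replicate 3. Without both refed IF16 replicate 5 and refed EOD replicate 5 no collagen was called, nor any other of all 16523 genes, and the slope of Col6a2 was then 1.45. Without refed IF16 replicate 5 alone 3 were called (68 of all 16548 genes), and without refed EOD replicate 5 alone 1 (45 of 16533). Col25a1 was also not called without refed AL replicate 2, refed AL replicate 5 or refed IF16 replicate 3 (adjusted p 0.0503, 0.0529 and 0.0541). Whether meningeal content accounts for these values was not tested.

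At the end of the regimens the index ran only from 3.197 to 3.73, and edgeR called no gene (0%), nor did DESeq2 call a collagen. Slopes were above 0 for 32 of 43 collagens, with a median of 0.32 (all genes -0.0042), and 9 (20.9%, all genes 2.41%) had an unadjusted p under 0.05. The 8 of these that were upward were Col3a1, Col5a2, Col6a2, Col1a2, Col6a4, Col6a1, Col1a1 and Col14a1, with slopes of 0.69 to 1.39. Col6a2 had 9.88, 13, 11.8, 11.6 and 13.6 CPM in AL, 12.6, 9.34, 7.19, 10.7 and 7.84 in IF16 and 12.6, 8.68, 11.5, 12.3 and 10.7 in EOD. Its lowest library was IF16 replicate 3, which also had the lowest index. Col6a1 had 16.2, 23, 20.4, 18.1 and 20.1 CPM in AL, 18.9, 18.7, 13.2, 14.7 and 16.5 in IF16 and 20.2, 15.8, 19.3, 15.5 and 19.2 in EOD, with the same library lowest. The 3 largest slopes were those of Col8a2, Col8a1 and Col6a4 (1.79, 1.67 and 1.39), and the 3 smallest those of Col24a1, Col11a1 and Col25a1 (-2.46, -1.12 and -1.10). After refeeding the largest besides Col6a2 were uncalled, those of Col8a1 and Col8a2 (1.47 and 1.30), and the smallest were those of Col4a1, Col11a2 and Col6a5 (-0.20, -0.19 and -0.08).

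**Figure D5:**
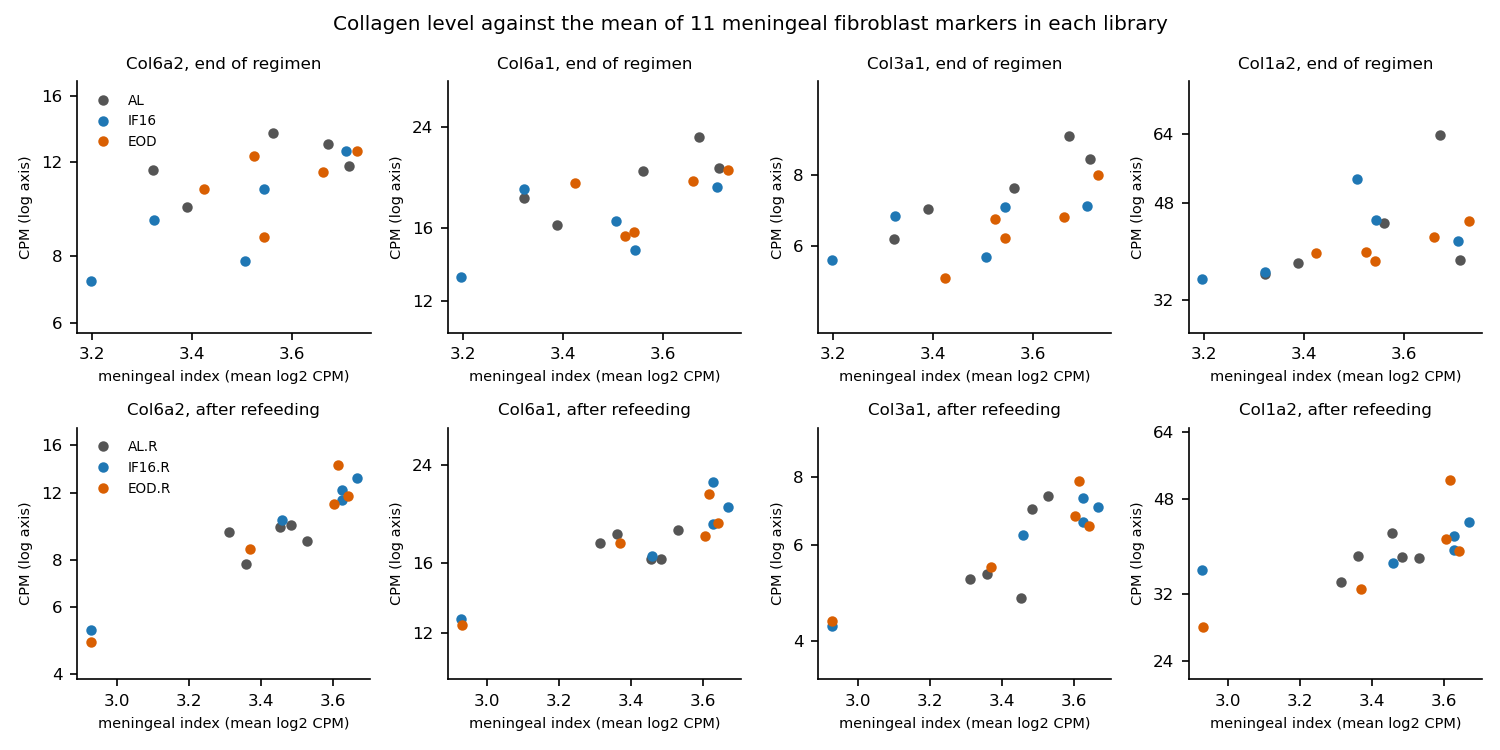
CPM of Col6a2, Col6a1, Col3a1 and Col1a2 (y axes, log scale) against the meningeal index (x axes, mean log2 CPM of 11 fibroblast markers that are not collagens) in each library, coloured by group. After refeeding, in the lower row, refed IF16 replicate 5 and refed EOD replicate 5 lie far to the left at an index of 2.93, with Col6a2 at 5.22 and 4.86 CPM.

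Slopes on the vascular index were called for no gene by edgeR (0%) and for no collagen by DESeq2 in either table. Among collagens 4 (9.3%, all genes 3.17%) and 8 (19%, all genes 4.77%) had an unadjusted p under 0.05. At the end of the regimens the largest were those of Col15a1, a multiplexin of vessel walls, Col23a1 and Col1a1 (2.85, 2.76 and 2.11), and Col4a1 had 1.43. After refeeding they were those of Col6a2, Col1a1 and Col22a1 (4.83, 4.45 and 4.26), and Col4a2 had 1.49. The smallest were those of Col4a3, Col8a1 and Col9a1 (-3.74, -3.41 and -3.20) and, after refeeding, of Col28a1, Col19a1 and Col11a2 (-3.13, -0.65 and -0.64). Ttr and the meningeal index were compared within the clusters of libraries, and no relation passed. Pearson's r was 0.464 and Spearman's rho 0.275 over the 13 libraries of high Ttr at the end of the regimens (permutation p = 0.108 and 0.361, adjusted 0.307 and 0.418), and r was -0.238 without the 2 farthest. After refeeding r was -0.439 and rho -0.6 over the 9 libraries of low Ttr (permutation p = 0.245 and 0.097, adjusted 0.307 and 0.32). Over the 6 of high Ttr r was 0.579 and rho 0.429 (permutation p = 0.223 and 0.418, adjusted 0.307 and 0.418). Without the 2 farthest, r was -0.426 and -0.945, the latter over the few libraries left of the 6 and with its sign reversed. Over all 15 libraries, across the clusters, r was 0.344 and rho 0.361 at the end of the regimens (permutation p = 0.209 and 0.186, adjusted 0.307 and 0.32). After refeeding they were -0.071 and -0.356 (permutation p = 0.812 and 0.192, adjusted 0.812 and 0.32). In all, 5 relations were computed.

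The spread within groups also differed between collagens. The SD of log2 CPM within groups was 0.773 for Col8a1 and 0.735 for Col8a2 at the end of the regimens, above 99.6% and 99.5% of all genes, and 0.718 and 0.616 after refeeding. Col19a1 (0.561), Col25a1 (0.411), Col11a1 (0.386), Col9a3 (0.369) and Col1a1 (0.359) were also variable at the end of the regimens, where the median gene had 0.181. After refeeding, Col6a2 (0.444), Col4a4 (0.394), Col1a1 (0.361) and Col4a3 (0.358) followed, with a median gene at 0.11. Smaller SDs were those of Col18a1 (0.127 and 0.096 after refeeding), Col27a1 (0.163 and 0.092), Col4a1 (0.131 and 0.149) and Col4a2 (0.137 and 0.128). Among the 1000 genes nearest in level, they stood at percentiles 41.6, 56.9, 42.1 and 44.2 at the end of the regimens. After refeeding the percentiles were 84.5, 72.2, 89.1 and 80.8, so there they varied more than most genes of like level. Col18a1 had 138, 175, 147, 155 and 166 CPM in AL, 152, 167, 129, 143 and 151 in IF16 and 168, 153, 139, 156 and 162 in EOD. Its groups overlapped throughout, with log2 fold changes of -0.07 and -0.0057. Col27a1, a fibrillar chain of cartilage, had 53, 65.9, 45.8, 42.4 and 53.4 CPM in AL, 52.1, 58, 48.9, 49.7 and 58.1 in IF16 and 47.4, 47.3, 44, 46.6 and 51.6 in EOD. After refeeding it had 52.8, 51.2, 55.3, 52.3 and 47.5 CPM in refed AL, 62.7, 58.3, 52.3, 52.4 and 56.9 in refed IF16 and 54.8, 51.1, 51.2, 47.7 and 47.3 in refed EOD. The groups overlapped in both tables, and its log2 fold change in refed IF16 was 0.13 (SE 0.0553, edgeR adjusted p = 0.476).

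Col12a1, the FACIT chain of tendon and muscle sheaths, had 11.5, 11.5, 10.7, 6.7 and 7.26 CPM in AL, 8.41, 8.28, 10.8, 8.31 and 9.04 in IF16 and 12.3, 8.91, 9.3, 11.3 and 7.38 in EOD. After refeeding it had 10.3, 11.6, 13.6, 10.4 and 9.75 CPM in refed AL, 16.8, 11, 14.2, 10.6 and 9.78 in refed IF16 and 14, 10.7, 11.5, 11.2 and 9.4 in refed EOD. No group lay apart. Col25a1 had 4.8, 2.5, 2.11, 1.97 and 1.38 CPM in AL, 1.32, 1.89, 3.13, 2.24 and 2.04 in IF16 and 2.61, 2.14, 3.21, 2.78 and 1.82 in EOD, and AL replicate 1 was the highest. Col23a1 had 12.8, 13.8, 14.1, 14.8 and 12.5 CPM in AL, 15.2, 14.4, 12.8, 14.3 and 12.7 in IF16 and 14.6, 13.8, 14.1, 26.7 and 14.3 in EOD, where EOD replicate 4 was far above the rest. Col1a1 after refeeding had 26.7, 26.9, 20.5, 26.9 and 22.2 CPM in refed AL, 26, 27.2, 24.5, 18.8 and 24.1 in refed IF16 and 44.8, 25.5, 18.3, 22.8 and 16 in refed EOD. Refed EOD replicate 1 stood out, and it also had the highest Col1a2, with 37.5, 37.3, 37.7, 41.5 and 33.7 CPM in refed AL, 41, 38.6, 43.5, 36.5 and 35.4 in refed IF16 and 52.2, 40.4, 32.7, 38.5 and 27.7 in refed EOD. Col4a1 after refeeding had 33.6, 26.1, 23, 27.8 and 24.3 CPM in refed AL, 25.6, 25.1, 26.9, 25.8 and 30.1 in refed IF16 and 26.5, 23, 25.1, 26.1 and 28.4 in refed EOD. Col4a2 had 26.8, 24.6, 20.1, 22.3 and 22.2 CPM in refed AL, 22.2, 20.4, 22.9, 20.3 and 20.9 in refed IF16 and 24.3, 19.3, 20.8, 19.7 and 22.9 in refed EOD. Both were highest in refed AL replicate 1, and their groups overlapped. Col24a1 after refeeding was near its limit of detection, with 0.246, 0.242, 0.163, 0.268 and 0.27 CPM in refed AL, 0.239, 0.258, 0.286, 0.236 and 0.33 in refed IF16 and 0.17, 0.316, 0.321, 0.0651 and 0.126 in refed EOD.

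Chains that assemble into the same molecule were compared across libraries after each group's mean was removed, in 9 pairs and 2 tables, 18 relations in all, with values permuted within groups. Col1a1 and Col1a2 had a Pearson's r of 0.888 at the end of the regimens (permutation p = 0.00105, adjusted 0.0063; Spearman's rho 0.779, permutation p = 0.00471, adjusted 0.0212) and of 0.88 after refeeding (permutation p = 0.00199, adjusted 0.00716; Spearman's rho 0.629, permutation p = 0.0276, adjusted 0.0621), over 15 libraries each. Without the 2 libraries farthest from the median r was 0.789 and 0.61. Col4a1 and Col4a2 had r of 0.759 (permutation p = 0.00145, adjusted 0.00652) and 0.687 (permutation p = 0.0158, adjusted 0.0316), with rho of 0.836 and 0.689 (permutation p = 0.00039 and 0.0116, adjusted 0.00234 and 0.0297), and r of 0.723 and 0.673 without the 2 farthest. Col6a1 and Col6a2 reached r of 0.593 (permutation p = 0.0431, adjusted 0.0706) and 0.884 (permutation p = 0.00329, adjusted 0.00846), with rho of 0.521 and 0.713 (permutation p = 0.0831 and 0.0115, adjusted 0.144 and 0.0297). Both were smaller without the 2 farthest, to 0.371 and 0.566. Col9a2 and Col9a3 gave 0.763 at the end of the regimens (permutation p = 0.00254, adjusted 0.00762; Spearman's rho 0.739, permutation p = 0.00613, adjusted 0.0221; and 0.706 for r without 2) and -0.023 after refeeding (permutation p = 0.936, adjusted 0.936; Spearman's rho -0.05, permutation p = 0.872, adjusted 0.872), and the difference between tables was not tested. For Col8a1 and Col8a2, whose libraries fall into clusters by Ttr, r over the 13 libraries left without the 2 farthest was 0.93 at the end of the regimens. Col4a3 and Col4a4 after refeeding had r of 0.695 (permutation p = 0.014, adjusted 0.0315; Spearman's rho 0.411, permutation p = 0.129, adjusted 0.193), which rested on the 2 farthest libraries, with 0.295 without them. Of the remaining pairs, none passed: r was 0.659 and 0.115 for Col4a5 and Col4a6 (adjusted permutation p 0.0706 and 0.785), 0.245 and 0.335 for Col5a1 and Col5a2 (0.596 and 0.391), 0.251 and 0.24 for Col11a1 and Col11a2 (0.599 and 0.491), and 0.423 for Col4a3 and Col4a4 at the end of the regimens (0.167). Spearman's rho of these 7 relations was 0.139 to 0.614 (adjusted permutation p 0.0911 to 0.691), and r without the 2 farthest libraries was -0.069 to 0.481. The libraries of a pair share their depth, dissection and RNA.

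Genes that modify, trim and bind collagens gave few calls. None of the 17 genes for hydroxylation and folding, of the 12 for processing and crosslinking or of the 10 receptors was called by edgeR in any comparison within a table. In IF16 against AL, 11 of 17, 8 of 11 tested and 6 of 9 tested were below 0, with medians of -0.10, -0.15 and -0.06, and 4, 2 and 1 had an unadjusted p under 0.05, each lower, where 9.92% of all genes passed it. They were the lysyl hydroxylases Plod1 and Plod3 (-0.33 and -0.25), the prolyl 3-hydroxylation partner Crtap (-0.37), the collagen chaperone Serpinh1 (-0.24), the procollagen peptidase Adamts2 (-0.34), the crosslinking oxidase Loxl1 (-0.84) and the collagen receptor Ddr1 (-0.33). In EOD the medians were -0.06, -0.16 and -0.06, with 3, 2 and 0 at that threshold, where 14.4% of all genes passed it. They were P4ha3, P3h4 and Crtap of the hydroxylation and folding list (-0.96, -0.31 and -0.33), Loxl1 (-0.48) and the procollagen peptidase Adamts3, which was higher (0.26). In both comparisons with refed AL the medians lay between -0.05 and 0.01. Loxl1 rose with Ttr at the end of the regimens, with a slope of 0.14 (SE 0.0256, edgeR adjusted p = 0.0104). After refeeding the receptors Mrc2, which takes up collagen for breakdown, and Ddr2 rose with the meningeal index, with slopes of 1.08 and 0.90 (edgeR adjusted p = 5.45e-05 and 0.00594), and Adgrg1, a receptor for collagen III in cortex, had a slope of -0.39 (adjusted p 0.00486). In refed AL against AL, 2 of 17, 3 of 12 and 0 of 10 were called, where 23.9% of all genes were. Plod1, Plod3, Pcolce, an enhancer of procollagen trimming, Loxl1 and Sparc, a collagen-binding matrix protein, fell (-0.32, -0.28, -0.85, -0.70 and -0.19, edgeR adjusted p = 0.04, 0.0205, 0.00827, 0.0122 and 0.0345). At an unadjusted p under 0.05, Colgalt1, Colgalt2, Mia3, Adamts3 and the integrin Itga1 were higher (0.13, 0.24, 0.14, 0.18 and 0.51). Of all genes 40% passed that threshold, made up of 19.1% higher in refed AL and the rest lower.

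Many collagen genes lie next to another collagen gene, which in some cases encodes a partner chain. Col4a4 and Col4a3 on chromosome 1 are head to head with 71 bases between them, and Col4a6 and Col4a5 on chromosome X with 1308. Col6a2 and Col6a1 run in the same direction on chromosome 10, 85161 bases apart, and Col6a6, Col6a5 and Col6a4 in a row on chromosome 9. Col3a1 and Col5a2 are tail to tail on chromosome 1 with 24614 bases between them, as are Col9a1 and Col19a1 with 9205. Another annotated gene overlapped 15 of the 44 collagens and a protein-coding one 5: Slc19a1 for Col18a1, Tcfl5 for Col9a3, Nt5dc1 for Col10a1, and Col4a1 and Col4a2 for each other.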

How the data were processed

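The 30 RNA-seq libraries of cerebellum were used, and 12 chromatin samples were not analysed here. Read counts per gene were made by the authors with STAR 2.5 and HTSeq 0.6.1 on mm10, per the submitters' processing notes, as were the deposited FPKM values, which were reproduced here from counts, gene lengths and library totals. RNA selection, strand setting and annotation release are not given in the sources used here. Groups follow the labels, with 5 libraries in each. The labels do not say that each library is a separate mouse, so p-values measure the spread between these samples, which may be technical.

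Each table of 15 libraries was fitted with edgeR 4.0.16 (TMM scaling, filterByExpr, quasi-likelihood test) in R 4.3.3, with p-values adjusted over all genes by the Benjamini-Hochberg method and a threshold of 0.05. Slopes had the group in the model, and a joint fit of 30 libraries gave the differences between tables and the comparison of refed AL with AL. CPM values are TMM-scaled within a table, except that those of refed AL against AL are scaled jointly, and logs used a pseudocount of 0.5. DESeq2 1.42.0 was an alternative, with other scalings, filters, covariates, a replicate block and libraries left out. Permutation tests (two-sided, 100000 resamples) used NumPy 2.4.6, with ranks from SciPy 1.17.1. Scripts were tested on simulated data. Genes named are those called, a chosen set of collagens and the extremes of each comparison. Col5a3, Col20a1, Col7a1 and others named for small p-values or separate groups were added after their values were seen. Members and lists were chosen with earlier results of these data known. Not every pair of same-numbered libraries correlated above 0.1, so the main fits did not take the numbers as pairs. After refeeding 14 of 15 such pairs were above 0, and the fits with the block are given as an alternative.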

Additional observations from a re-analysis of the deposited data

Results flagged for a closer look

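Among 19 collagens, 114 sets of 5 libraries were examined for a single library far from the others (gap over range above 0.71), and 7 were found, where chance gives about 1 in 20. Col23a1 was 26.7 CPM in EOD replicate 4 and 13.8 to 14.6 in the other EOD libraries. Col24a1 was 1.71 CPM in AL replicate 1 against 0.288 to 0.515, and 0.163 in refed AL replicate 3 against 0.242 to 0.27. In refed AL replicate 1, which had 1820 CPM of Ttr, Col8a1 was 6 CPM against 0.981 to 1.61, Col8a2 15.5 against 4.2 to 6.12, and Col9a3 61 against 46.7 to 49.1. Col4a4 was 1.37 CPM in refed IF16 replicate 1, with 602 CPM of Ttr, against 0.608 to 0.826.

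Col2a1 was also singled out because its log2 fold change between the daily fasted and the control group differed between the end of the regimens and the end of refeeding, by 1.17 in the test of that difference (edgeR adjusted p = 0.0034).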

How the results depend on the processing

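Counts of called collagens were recomputed, together with the correlations of Ttr with the meningeal index. Of these, 322 were rated the same (for counts, within 1.5 times) and 29, all of them counts, were not. Of values for single genes and for pairs of partner chains, 3300 were rated the same, 51 passed the threshold newly, 53 lost it and 14 changed sign. For a gene, the same means direction and side of the threshold. A correlation was rated as changed only if it had passed the threshold and reversed. That of Col5a1 and Col5a2 at the end of the regimens went from 0.245 to -0.069 and was rated the same. For IF16 against AL the count of 0 became 1 with the length gradient as covariate and 2 with DESeq2, and for EOD against AL 2 with DESeq2. Refed IF16 against refed AL gave 3 with DESeq2 and 0 to 2 with a library left out (0 to 65 of all genes). Refed EOD against refed AL gave 1 with Ttr as covariate (14 of all genes), 1 with DESeq2 and 0 to 1 with a library left out (0 to 16 of all genes). The change of the EOD difference gave 1 with DESeq2 and 1 without the 4 libraries of extreme length gradient (chosen after seeing the data, 4 of all 17110 genes). It gave 0 to 1 with a library left out (0 to 6 of all genes). Refed AL against AL gave 3 with Ttr, 8 with the vascular index and 1 with the length gradient as covariate, 1 without those 4 libraries, and 2 to 8 with a library left out. Over all genes the calls there went from 4031 to 1004, 2734, 223, 405 and 830 to 6173, in the same order. After refeeding, without the 2 libraries farthest from the median, the count of called slopes was 0 for Ttr (27 of all 16482 genes) and 0 for the meningeal index (0 of 16523). With 1 library left out they were 2 to 4 (52 to 109 of all genes) and 1 to 8 (45 to 711 of all genes). The cause was not tested.

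With the replicate number as a block, called collagens were 2 for refed IF16 against refed AL, 2 for refed EOD against refed AL and 1 for the meningeal slope after refeeding, and the slopes of Col5a2 and Col8a1 there became -0.25 and -0.69. The calls were Col20a1 and Col7a1 in refed IF16 (adjusted p 0.0163 and 0.0496), and Col5a3 and Col20a1 in refed EOD (0.0266 each). Over all genes the block moved the calls from 28 to 95 and from 7 to 45 in these comparisons, and from 8 to 5 and 11 to 4 for IF16 and EOD against AL. For the meningeal slope after refeeding it moved them from 239 to 16. The labels do not say what the numbers mark. Same-numbered pairs correlated above 0.1 in 3 of 15 cases at the end of the regimens (-0.534 to 0.322) and in 8 of 15 after refeeding (-0.055 to 0.427), where 14 of 15 were above 0. Of 15 libraries, 0 and 2 correlated best with their own number in both other groups.

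Signs also changed for the Ttr slope at the end of the regimens without AL replicate 1 (Col11a1 0.0002, in a range of -0.16 to 0.0002 with a library left out; Col24a1 0.0119, in one of -0.26 to 0.0119) and without the 2 farthest libraries (Col24a1 0.0299). They changed for Col4a4 in refed IF16 against refed AL (0.38), and for Col4a4 and Col8a1 in refed EOD against refed IF16 (-0.16 and -0.41), with the length gradient. For the meningeal slope after refeeding they changed for Col14a1, Col4a1 and Col5a2 (-0.17, 0.50 and -0.25) without the 2 farthest. The vascular slope changed for Col19a1 (1.06, range -1.09 to 1.06) without refed AL replicate 3 and Col23a1 (-0.14) with the other tissue covariates, and the EOD change for Col8a1 (0.35, range -0.76 to 0.35) without refed AL replicate 1. DESeq2 gave no adjusted p for Col24a1 in refed AL against AL. Over all genes, IF16 against AL gave 8 calls with edgeR, 62 with the length gradient and 94 with DESeq2, and EOD against AL 11 and 133. Col10a1 and, after refeeding, Col24a1 had too few counts to test.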
